A study of Mus musculus with 12 samples.

Results

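Villi-only promoter H3K27me3 peaks were defined as regions of trimethylated lysine 27 of histone H3 that were called in the villi of the mouse small intestine, were less than 10 kb wide, did not share a base with any H3K27me3 peak called in crypts, and lay within 1 kb of an annotated start of a protein-coding gene. This rule selected 1070 of the 13797 H3K27me3 peaks of villi (7.76%), which were 14.0% of the 7670 villi peaks without a crypts counterpart. Among the 3876 villi peaks under 10 kb at promoters, 27.6% passed the rule, and the other 2806 were shared with crypts. The number depends on the rule: a villi list cut to the length of the crypts list, an alternative chosen after seeing the data, left 487, and a required reciprocal overlap of 50% gave 1718. The regions were chosen by the H3K27me3 calls of both compartments, so their H3K27me3 calls, scores and widths are given as a description and were not tested.

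The study is about cleavage of the histone H3 tail during intestinal differentiation, and its ChIP-seq compared the proliferative crypts with the differentiated villi of mice, with no treatment or genetic change named in the labels. Villi were scraped from the opened intestine, and crypts were released afterwards with EDTA from the remaining tissue. Both are bulk fractions that hold cells of several types, and the cross-linked chromatin was mixed with Drosophila chromatin as a spike-in. There was 1 library for each compartment and each of H3K27me3, H3K4me3, H3K4me1, H3K9me3 and H3K9me2, and strain, sex, age and number of mice are not given in the sources used here.

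H3K27me3 is deposited by Polycomb repressive complex 2 and marks genes that are kept silent, often transcription factors and signalling genes of other lineages. H3K4me3 marks the starts of active or poised genes, and H3K4me1 is found at enhancers and at the flanks of promoters. Promoters that carry H3K27me3 together with H3K4me3 are called bivalent, and in mammals Polycomb is commonly found at promoters rich in CpG dinucleotides. In the intestine, stem and progenitor cells divide in the crypts, and their progeny move onto the villi as absorptive enterocytes and secretory cells.

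Sequences just upstream of the starts show how widely the promoters of this set vary. Shown first are the 3 with the most CpG dinucleotides among the 40 highest-scoring peaks whose 200 upstream bases lie inside the peak and outside annotated untranslated regions. They are read 5′ to 3′ on the strand of the gene from the RefSeq GRCm38.p6 genome, with each CpG in capitals, and belong to Mroh5 (chr15:73839672-73839871, minus strand), Ank3 (chr10:69398796-69398995, plus strand) and Sema4c (chr1:36557558-36557757, minus strand).
Mroh5: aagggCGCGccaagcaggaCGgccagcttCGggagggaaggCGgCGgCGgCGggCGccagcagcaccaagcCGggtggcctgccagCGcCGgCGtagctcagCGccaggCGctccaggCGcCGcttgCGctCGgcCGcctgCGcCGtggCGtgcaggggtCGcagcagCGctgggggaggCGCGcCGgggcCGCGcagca
Ank3: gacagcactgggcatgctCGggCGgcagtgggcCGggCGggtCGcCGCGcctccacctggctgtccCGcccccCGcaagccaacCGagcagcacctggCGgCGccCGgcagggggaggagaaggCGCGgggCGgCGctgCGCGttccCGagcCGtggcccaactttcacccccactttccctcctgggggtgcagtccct
Sema4c: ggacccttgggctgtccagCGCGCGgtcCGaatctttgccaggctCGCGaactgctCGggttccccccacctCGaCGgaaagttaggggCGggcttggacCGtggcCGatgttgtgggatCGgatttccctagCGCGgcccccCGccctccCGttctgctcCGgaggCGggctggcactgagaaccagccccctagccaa

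The 3 promoters with the fewest CpG dinucleotides in the same pool belong to Gcm2 (chr13:41110184-41110383, minus strand), Cxcl5 (chr5:90759178-90759377, plus strand) and Gbp5 (chr3:142496700-142496899, plus strand), and are shown because most peaks of this set had no CpG island at the start.
Gcm2: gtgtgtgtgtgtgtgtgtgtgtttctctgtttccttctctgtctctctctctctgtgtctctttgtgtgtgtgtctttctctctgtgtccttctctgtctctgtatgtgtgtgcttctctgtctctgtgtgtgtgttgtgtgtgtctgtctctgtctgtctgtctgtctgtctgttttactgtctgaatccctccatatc
Cxcl5: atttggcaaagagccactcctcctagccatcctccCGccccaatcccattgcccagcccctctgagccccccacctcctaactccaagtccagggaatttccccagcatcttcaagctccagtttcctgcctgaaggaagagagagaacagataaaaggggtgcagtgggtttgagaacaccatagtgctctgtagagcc
Gbp5: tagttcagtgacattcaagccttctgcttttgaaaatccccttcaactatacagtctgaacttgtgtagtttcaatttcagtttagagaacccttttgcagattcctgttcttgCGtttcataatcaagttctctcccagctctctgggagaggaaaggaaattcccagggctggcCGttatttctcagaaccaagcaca

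The upstream bases of Mroh5, Ank3 and Sema4c hold 30, 21 and 19 CpG dinucleotides, at a GC content of 79.5, 75.5 and 68.0%. Those of Gcm2, Cxcl5 and Gbp5 hold 0, 1 and 2, at a GC content of 46.0, 55.0 and 42.5%. Ank3 encodes an ankyrin that anchors membrane proteins to the cytoskeleton, Sema4c a semaphorin, Gcm2 a transcription factor of the parathyroid gland, Cxcl5 a chemokine and Gbp5 an interferon-induced GTPase.

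A further pair is shown from genes with a H3K4me3 peak near a start in villi and near none in crypts. They are Elavl2 (chr4:91373031-91373230, minus strand), which encodes a neuronal RNA-binding protein, and Tmem130 (chr5:144761650-144761849, minus strand), which encodes a transmembrane protein. Their upstream bases hold 4 and 7 CpG dinucleotides. The villi H3K4me3 peak of Tmem130 covered 489 bp within 1 kb of the start shown, whereas that of Elavl2 covered 0 bp there and lay at other starts of the gene, from 91376072 to 91376537.
Elavl2: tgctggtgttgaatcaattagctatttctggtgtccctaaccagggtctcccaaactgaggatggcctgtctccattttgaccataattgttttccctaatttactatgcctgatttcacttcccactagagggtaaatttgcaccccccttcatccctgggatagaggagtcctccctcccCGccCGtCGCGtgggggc
Tmem130: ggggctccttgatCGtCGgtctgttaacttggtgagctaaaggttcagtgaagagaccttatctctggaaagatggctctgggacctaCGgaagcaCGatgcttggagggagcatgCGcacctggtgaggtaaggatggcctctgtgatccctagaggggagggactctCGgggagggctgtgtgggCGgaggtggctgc

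Villi-only promoter peaks were narrower and scored lower than those shared with crypts. Their median width was 1229 bp (quartiles 797 and 1936 bp, range 362 to 8847 bp), against 3290 bp for the shared promoter peaks and 1040 bp for the 6599 villi-only peaks away from promoters. The score of a peak, taken as the −log10 of the p-value assigned by the peak caller, had a median of 13.1 (quartiles 11.4 and 16.6, range 10.0 to 38.4), against 25.3 for the shared and 12.1 for the distant peaks. Of the 1070 peaks, 406 (37.9%) ranked in the upper 50% of the villi list, against 89.1% of the shared promoter peaks.

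The 10 highest scores were found at Mroh5 (38.4), Foxa2 (35.9), Fbxl2 (34.8), Dpysl3 (33.7), Doc2b (33.4), Elavl2 (32.6), Sorcs2 (31.8), Kcnip1 (31.5), Slc44a5 (31.5) and Camta1 (31.5). Foxa2 encodes a forkhead transcription factor of endoderm and Fbxl2 a subunit of a ubiquitin ligase. Elavl2, Dpysl3, Doc2b, Sorcs2, Kcnip1 and Camta1 are best known from neurons, where they act in RNA binding, axon growth, vesicle release, receptor sorting, potassium channel gating and transcription. At Foxa2, Fbxl2, Dpysl3 and Sorcs2 the peak overlapped H3K4me3 peaks of both compartments, and at Mroh5, Doc2b, Kcnip1, Slc44a5 and Camta1 it overlapped none.

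The nearest start lay inside 507 of the peaks (47.4%, 95% Wilson interval 44.4 to 50.4%), against 67.2% of shared promoter peaks, which were wider. It lay outside the other 563 at a median distance of 394 bp, with the peak upstream of the start in 252 and downstream in 311. A coding exon of the nearest gene was overlapped by 493 peaks, a non-coding part of an exon alone by 217 and an intron alone by 153, and 207 were entirely upstream of the gene. The peaks fell at 1008 genes, 4.61% of the 21866 protein-coding genes, with 1037 peaks at 1 gene and 33 at 2 genes. At 917 of these genes there was a single peak, and at 91 there were 2 or 3. For 217 peaks (20.3%) the outermost start of the nearest gene was more than 1 kb away, so that only an inner start met the rule.

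At 750 of the 1008 genes (74.4%) no start had a crypts H3K27me3 peak within 1 kb. At the other 258 (25.6%) crypts carried H3K27me3 near a start as well, beside the villi-only peak or at another start. Over all protein-coding genes, promoter H3K27me3 was found in villi and not in crypts at 791 genes, or 3.62%. The nearest crypts H3K27me3 peak lay at a median of 40212 bp from a villi-only promoter peak (quartiles 4075 and 214141 bp). It was within 1 kb of 161 peaks and more than 100 kb from 393 (36.7%), whereas villi-only peaks away from promoters had a median distance of 10260 bp, with 15.2% of them beyond 100 kb. The peak at Nt5e, which encodes an ecto-nucleotidase, was 324 bp from a crypts peak, and that at Hhip, a Hedgehog-binding protein, was 1616990 bp from the nearest.

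The limits of the rule fell between neighbouring values. Krt75 had the widest peak at 8847 bp, while a villi-only peak of 10258 bp near Nrg2 was too wide and also 11955 bp from a start. The peak at Thrsp was the farthest from a start at 1000 bp, and the nearest beyond the limit lay 1002 bp from a start of Kcnip1. Car15 had the peak closest to a crypts peak, with 96 bp between them, whereas a peak of Mpdz was counted as shared for an overlap of 127 bp.

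The absence of these peaks from crypts was read from a shorter list. Crypts had 7611 H3K27me3 peaks, and the numbers in their names run to 16211, so that 8600 numbers (53.1%) have no peak in the list. Of 1053 villi-only promoter peaks with a crypts peak on each side, 105 (9.97%) lay between crypts peaks with consecutive numbers, where no numbered call was missing. For the distant villi-only peaks the share was 10.1%. Where the missing calls lay is not given in the sources used here, and the part of sequencing depth in the difference was not tested. In bulk chromatin, more cells with the mark cannot be told apart from more of the mark in each cell.

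H3K4me3, a mark the rule did not use, was called in crypts at 337 of the 1070 peaks, or 31.5%, with a 95% Wilson interval of 28.8 to 34.3%. The villi list overlapped 332, or 31.0%. Shared promoter peaks overlapped H3K4me3 more often, at 41.7% for crypts and 42.3% for villi. H3K4me1 overlapped 365 villi-only promoter peaks in crypts (34.1%) and 408 in villi (38.1%), against 54.3 and 60.8% of the shared ones. An overlap needed only 1 bp, and the shared peaks were wider, with a median of 3290 bp against 1229 bp. The part of width in these differences was not tested. The 6599 villi-only peaks away from promoters lie more than 1 kb from a start by definition. At these, H3K4me3 was found at 1.59% in crypts and 1.45% in villi, and H3K4me1 at 5.86 and 5.89%. The 165 promoter peaks of crypts without a villi counterpart overlapped H3K4me3 more often, at 61.2% in each compartment. These shares are of peaks that the mark overlapped. Counted instead as genes with the mark within 1 kb of any start, 57.7% of all protein-coding genes had H3K4me3 in crypts and 57.9% in villi, and 57.8 and 56.1% had H3K4me1, a measure that is not comparable with overlap of the peak.

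**Figure D1:**
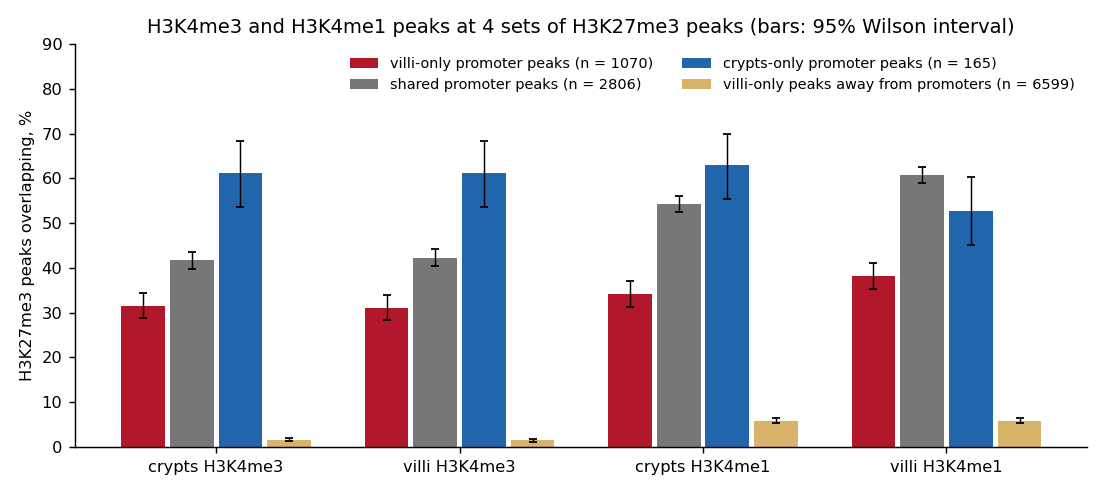
Share of H3K27me3 peaks (vertical axis, %) that overlapped H3K4me3 or H3K4me1 peaks of crypts or villi, for 4 sets of H3K27me3 peaks, with bars for the 95% Wilson interval, which covers counting error only. Villi-only promoter peaks sit between 31.0 and 38.1%, below the shared promoter peaks and above the distant villi-only peaks for each mark. The shared promoter peaks were wider, and the distant peaks lay more than 1 kb from a start.

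The villi-only promoter peaks mostly overlapped H3K4me3 in both compartments or in neither. The H3K4me3 overlap was found in both for 302 peaks (28.2%), in crypts alone for 35, in villi alone for 30 and in neither for 703 (65.7%). H3K4me1 was found in both for 320, in crypts alone for 45, in villi alone for 88 and in neither for 617. As shares, H3K4me3 in crypts or villi alone was at 3.27 and 2.80%, against 4.63 and 5.27% of shared promoter peaks, and H3K4me1 at 4.21 and 8.22%, against 3.64 and 10.1%, so that H3K4me1 was called in villi alone more often than in crypts alone in both sets. At 589 peaks (55.0%) neither mark was called in either compartment, and 236 (22.1%) overlapped both marks in both compartments. Overlap was often partial. Where a villi H3K4me3 peak was present it covered a median of 35.9% of the H3K27me3 peak, and at 111 of 332 it covered 50% or more. Within 1 kb of any start, H3K4me3 was found in both compartments at 45.8% of the 1008 genes and in neither at 48.7%. In these bulk libraries, both marks on the same chromatin cannot be told apart from the marks on different cells or alleles.

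Peaks with H3K4me3 in both compartments and in neither were placed differently around the start. The rule kept every peak within 1 kb of a start, and the groups were split by overlap with the same peaks. Among starts inside a peak, the one nearest its middle was used. The positions are therefore a description only. With H3K4me3 in both, villi H3K27me3 covered 47.7% of the promoters 500 bp upstream, 42.4% at the start itself and 64.2% at 500 bp downstream, with a highest value of 67.9% at 700 bp downstream. The H3K4me3 of the same promoters was highest 100 bp downstream of the start, where villi peaks covered 89.1% and crypts peaks 94.0%. At the start itself they covered 86.1 and 90.4%, at 500 bp upstream 42.1 and 44.4% and at 500 bp downstream 72.5 and 76.5%. With H3K4me3 in neither, villi H3K27me3 went from 43.4% at 500 bp upstream to 55.2% at the start, with a highest value of 63.3% at 300 bp downstream, and did not dip at the start. Crypts H3K27me3, which the rule kept out of the peaks themselves, reached 10.9% at 900 bp downstream in the first group and 9.82% at 1000 bp downstream in the second.

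**Figure D2:**
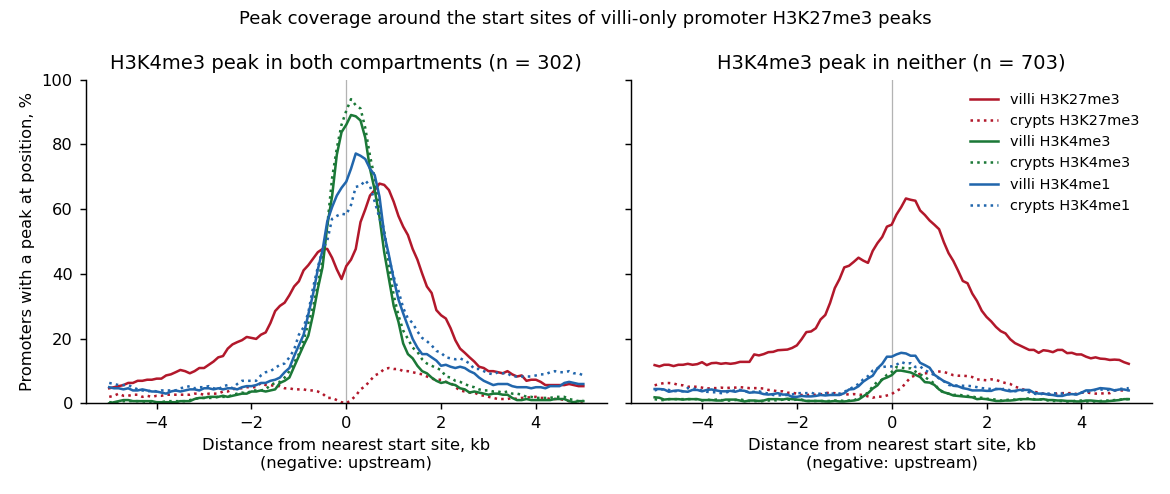
Share of promoters (vertical axis, %) with a peak at each distance from the nearest start (horizontal axis, kb), for the 302 villi-only H3K27me3 peaks with H3K4me3 in both compartments (left) and the 703 with H3K4me3 in neither (right). Solid lines are villi and dotted lines crypts, and on the left villi H3K27me3 dips near the start, with 42.4% at the start itself, where villi H3K4me3 is at 86.1%.

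At 41 starts a villi-only peak lay on each side of the start, with a median of 901 bp between them. The start itself lay in H3K4me3 of both compartments at 19 of these and in no H3K4me3 at 18. At Foxa2, the peaks of 1674 and 3053 bp were 1199 bp apart, and the start between them lay in H3K4me3 of both crypts and villi. At Gcm2, peaks of 1385 and 826 bp flanked a start without H3K4me3.

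CpG islands were found more often at the starts of peaks that overlapped H3K4me3. In the 1000 bases centred on the start, the ratio of observed to expected CpG had a median of 0.515 for villi-only promoter peaks, 0.672 for shared promoter peaks and 0.561 for all protein-coding genes. A CpG island was taken as a GC content of at least 50% and a ratio of at least 0.6. It was found at the nearest start of 440 peaks (41.1%, 95% Wilson interval 38.2 to 44.1%), against 61.5% for shared promoter peaks and 45.1% for all genes. The values for all genes were taken at the outermost start of each gene, and those for peaks at the nearest of any start. When the rule used outermost starts alone, the villi-only promoter peaks had a median ratio of 0.559 and islands at 45.6%, so that on a like basis the difference from all genes was not seen. Of the 302 peaks with H3K4me3 in both compartments 233 (77.2%) had an island, and of the 703 with H3K4me3 in neither 172 (24.5%). Taken from the island side, villi H3K4me3 overlapped 56.4% of the peaks with an island and 13.3% of those without, against 50.8 and 28.7% of the shared promoter peaks. Peaks with the start inside had an island in 27.8% of cases and peaks beside the start in 53.1%. Higher-scoring peaks had islands more often, with 48.9% among the 356 with the highest scores and 35.1% among the 356 with the lowest. Over the peak itself, not the start, only 10.7% of villi-only and 9.69% of shared promoter peaks met the island limits.

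**Figure D3:**
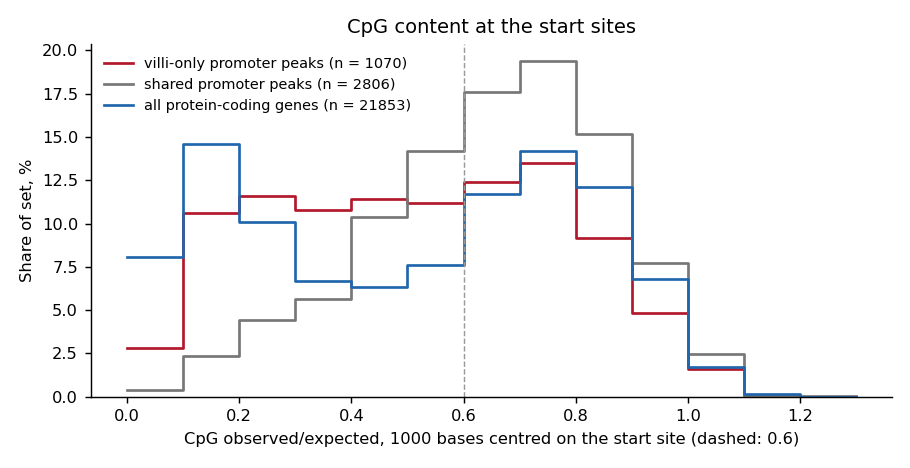
Distribution of the observed to expected CpG ratio (horizontal axis) in the 1000 bases around the start, as a share of each set (vertical axis, %), with the island limit of 0.6 dashed. The 1070 villi-only promoter peaks spread over low and high ratios with a median of 0.515, the 2806 shared promoter peaks have a median of 0.672, and all protein-coding genes, taken at outermost starts and so not on a like basis, one of 0.561.

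Short motifs of intestinal transcription factors were searched on both strands from 250 bases before to 50 bases after the start. The TCF/LEF motif of the Wnt pathway, ATCAAAG, was present at 2.34% of villi-only promoter peaks, 2.07% of shared ones and 3.31% of all genes. The motif of GATA factors, searched as AGATAA, was present at 8.22, 5.60 and 10.1% in the same order. The motif of the caudal factors, searched as TTTATG, was present at 5.79, 5.56 and 10.5%, and that of HNF4, searched as AAAGTCC, at 3.36, 2.53 and 4.34%. The values for all genes were taken over 21853 promoters at outermost starts, and those for peaks at the nearest of any start. Around these starts the median GC content was 54.9% for all genes and 57.5% for villi-only promoter peaks. The part of start choice and GC content in the motif shares was not tested. The 95% Wilson intervals of the villi-only promoter peaks and of all genes overlapped for TCF/LEF (1.59 to 3.43% and 3.08 to 3.56%), GATA (6.72 to 10.0% and 9.68 to 10.5%) and HNF4 (2.44 to 4.62% and 4.08 to 4.62%), and did not for the caudal motif (4.55 to 7.36% and 10.1 to 10.9%). Against shared promoter peaks they overlapped for TCF/LEF (1.60 to 2.66%), the caudal motif (4.77 to 6.47%) and HNF4 (2.01 to 3.18%), and did not for GATA (4.80 to 6.51%).

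Genes with a villi-only promoter peak were counted in lists of gene families and cell types, beside the 4.61% found over all genes. Among signalling genes, 7 of 79 of the Wnt pathway had a peak, 3 of 31 of the Notch pathway, 5 of 63 of the BMP and TGF-beta pathway, 2 of 20 of the hedgehog pathway and 8 of 64 ligands and receptors of the FGF, EGF and ephrin families (12.5%). In the same order, promoter H3K27me3 was found in villi and not in crypts at 4, 3, 2, 2 and 2 genes of the lists. Over all genes this share was 3.62%. In the Wnt pathway the 7 genes with a peak were the ligands Wnt7a and Wnt8b, the receptor tyrosine kinase Ror2, the R-spondin Rspo2, its receptor Lgr6, the antagonist Dact3 and the receptor Tnfrsf19. Wnt7a had a peak of 2550 bp with a score of 20.3 and Ror2 one of 1532 bp with 15.8, and both genes had H3K4me3 and H3K4me1 in both compartments and crypts H3K27me3 near a start. In the Notch pathway, the ligand Jag2 had a peak of 3017 bp (score 26.6), the target Heyl one of 2435 bp (19.4), and the receptor Notch3 a pair of 867 and 444 bp (12.2 and 13.1).

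Among BMP and TGF-beta genes, the ligand Gdf11 had the highest score (26.3), followed by the signal transducer Smad9 (16.6), the decoy receptor Bambi (13.6), the target Id4 (12.6) and the protease Bmp1 (11.3). All 5 had H3K4me3 in both compartments, as had 40 of the 63 genes of the list. The 5 also had a CpG island at the start, as had 41.1% of all villi-only promoter peaks, and islands were not counted over the list. Of the hedgehog genes Hhip (13.8) and Gli3 (12.0), an inhibitor and a transcription factor, neither had H3K4me3 or H3K4me1 in either compartment, whereas 9 of the 20 genes of the list lacked H3K4me3 and 4 lacked H3K4me1. In the FGF, EGF and ephrin list, Fgf18 had a peak of 4138 bp with a score of 30.7, and Nrg1, Epha10, Fgf16, Fgf20, Fgf12, Fgf4 and Ephb6 had peaks of 370 to 1674 bp with scores of 10.5 to 17.0.

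In the lists of transcription factor families the shares lay on both sides of the 4.61% of all genes, with intervals that held it. Of 204 homeobox genes 6 had a villi-only promoter peak (2.94%, 95% Wilson interval 1.35 to 6.27%), and 168 of the 204 already carried promoter H3K27me3 in crypts. The 6 were Onecut2 (score 21.7), Mnx1 (21.3), Cux2, Meis3, Dmbx1 and Zfhx3. No T-box gene of 17 had such a peak (95% Wilson upper bound of 18.4%), and 11 had H3K27me3 in crypts. From the basic helix-loop-helix list 7 of 107 had one (6.54%, 3.20 to 12.9%), including Heyl (19.4), Mycn and the intestinal stem cell factor Ascl2. Nuclear receptors had one at 3 of 49 genes (6.12%), SOX genes at 1 of 20 (5.00%), KLF and SP genes at 1 of 26 (3.85%) and GATA genes at 1 of 6 (16.7%, 3.01 to 56.4%). Among them were Sox6 (18.4), Klf15 (14.7), the nuclear receptors Esr2 (13.1) and Rorb (11.4), and Gata4 (10.5).

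**Figure D4:**
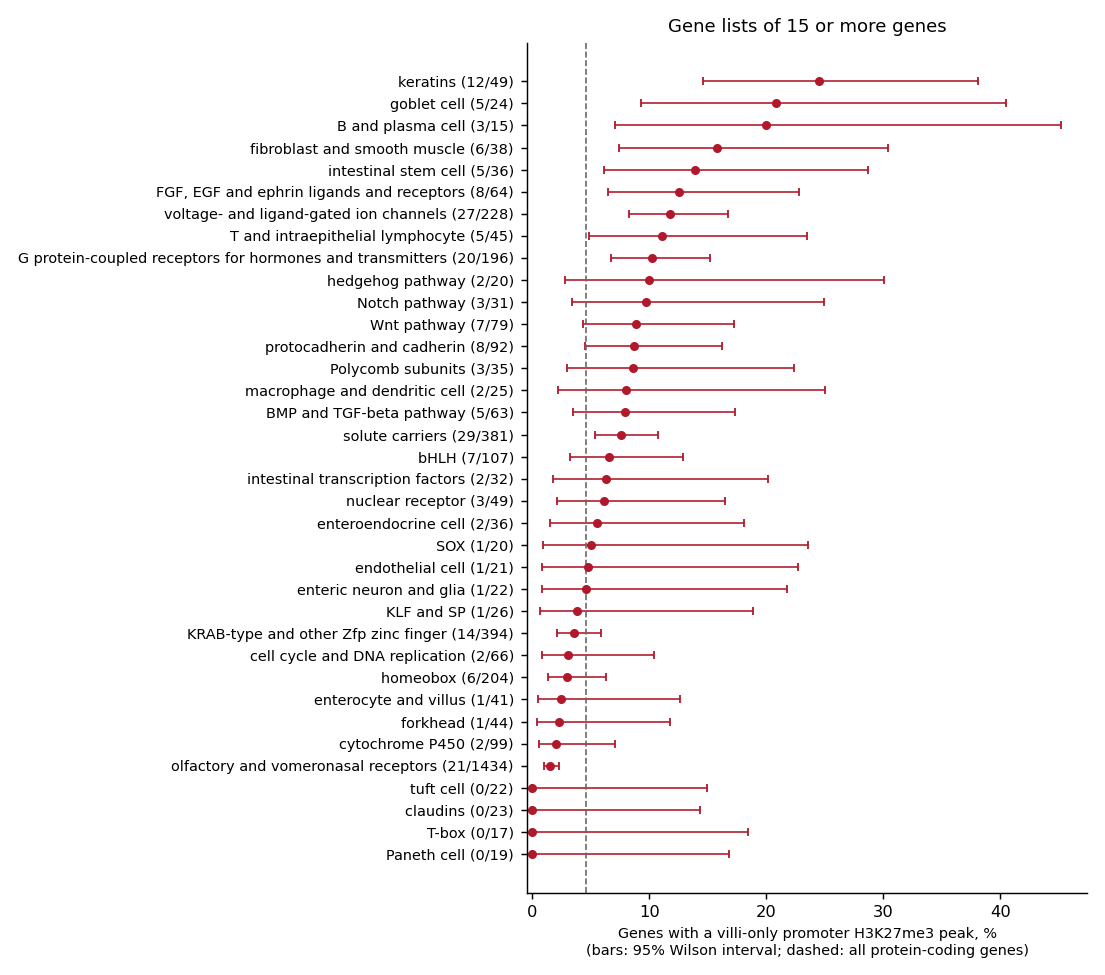
Share of the genes of each list with a villi-only promoter H3K27me3 peak (horizontal axis, %), with the number of such genes and of list genes beside each name and bars for the 95% Wilson interval. The dashed line is the 4.61% of all protein-coding genes, with keratins at 24.5%, ion channels at 11.8%, homeobox genes at 2.94% and olfactory and vomeronasal receptors at 1.46%.

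Keratins, the intermediate filaments of epithelia, had a villi-only promoter peak at 12 of 49 genes (24.5%), and none of the 12 had H3K4me3 in either compartment or a CpG island. Over the whole list 41 of the 49 keratins had no H3K4me3 in either compartment, and islands were not counted over the list. Their peaks ranged from 368 to 8847 bp, the widest being Krt75 (8847 bp), Krt73 (5975 bp), Krt5 (5173 bp), Krt76 (4731 bp) and Krt27 (4377 bp). Scores were highest for Krt75 (21.9), Krt27 (18.6) and Krt4 (17.5). Krt5 and Krt14, the pair of keratins of the basal layer of skin, had scores of 12.0 and 13.1. Krt6a and Krt6b, which the list does not hold, also had peaks, of 6171 bp (23.2) and 2090 bp (10.6). Voltage- and ligand-gated ion channels had a peak at 27 of 228 genes (11.8%), led by Kcnip1 (31.5), Kcnip2 (26.3) and Gabrd (21.3), and 20 of the 27 had H3K4me3 in neither compartment, as had 156 of the 228 genes of the list. Receptors for hormones and transmitters had one at 20 of 196 genes (10.2%), led by S1pr2 (28.1) and Grm2 (22.6), and solute carriers at 29 of 381 (7.61%), led by Slc44a5 (31.5), Slc6a2 (27.3) and Slc45a3 (25.5). Of the 29 solute carriers 17 had H3K4me3 in both compartments, as had 253 of the 381 genes of the list. Promoter H3K27me3 in villi and not in crypts was found at 16 ion channels, 15 receptors for hormones and transmitters and 24 solute carriers. Olfactory and vomeronasal receptors had a peak at 21 of 1434 genes (1.46%). Members of the keratin and receptor families have near-identical copies, and the authors kept 1 position per read, so that a call at such a gene may include reads of a copy.

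Part of the peaks stood close to each other. With neighbours joined across gaps of up to 100 kb, 344 of the 1070 peaks (32.1%) fell into 139 groups, of which 5 held 5 or more. These 5 groups were picked out after their values were seen. Only villi-only promoter peaks were grouped in this way, so the 32.1% has no share of other peaks or promoters beside it. The largest held 13 peaks over 289955 bp of chromosome 11, from 58433317 to 58723271, all but 1 of them nearest to an olfactory receptor gene, with Olfr30 at a score of 18.8 and Olfr331 at 16.8. The next held 10 peaks over 358024 bp of chromosome 15, at Krt75, Gm5478, Krt6b, Krt6a, Krt5, Krt72, Krt73, Krt2, Krt76 and Krt4. Inside the same stretches, 6 and 15 other villi H3K27me3 peaks were shared with crypts. Of the other 3, one on chromosome 9 held 7 peaks at Pth1r, Myl3 and the serine protease genes Prss44, Prss43 and Prss45, one on chromosome 4 held 5 at Arhgef10l, Rcc2, Padi6, Padi3 and Padi1, and one on chromosome 3 held 5, with Reg4 and Phgdh among their genes. Reg4 is a lectin of secretory cells of the gut and Phgdh the first enzyme of serine synthesis.

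Among genes of the intestinal epithelium, 5 of 36 stem cell genes had a villi-only promoter peak (13.9%, 95% Wilson interval 6.08 to 28.7%). Msi1, an RNA-binding protein of progenitors, had a peak of 1258 bp (score 16.6), Tnfrsf19 a pair of 1188 and 497 bp (13.9 and 13.4), Slc14a1 one of 580 bp (12.0), the sodium-potassium-chloride transporter Slc12a2 one of 474 bp (11.1) and Ascl2 one of 1936 bp (10.5). Ascl2 and Msi1 also had crypts H3K27me3 near a start. Promoter H3K27me3 in villi and not in crypts was thus found at 3 of the 36, against 3.62% of all genes. In the villi list the peaks of the 5 genes ranked from the 7.05th percentile (Ascl2) to the 60.3th (Msi1). Slc12a2 was at the 20.1th and Slc14a1 at the 29.6th. Of goblet cell genes 5 of 24 had a peak (20.8%), namely Foxa2, Zg16, Spink4, Bcas1 and Creb3l1, with Zg16, a lectin of mucus granules, at 4391 bp and a score of 13.0. The cell cycle list had 2 of 66, the transcriptional repressors E2f7 (13.5) and E2f8 (10.6). Of 41 enterocyte genes 1, Nt5e, had a peak (2.44%, 0.432 to 12.6%, an interval that holds the 4.61% of all genes), and none was found at 19 Paneth cell genes (95% Wilson upper bound of 16.8%) or at 22 tuft cell genes (14.9%). Intestinal transcription factors had 2 of 32, Onecut2 and Gata4, and enteroendocrine genes 2 of 36, with Myt1 at a score of 11.3. Among Polycomb subunits and partners 3 of 35 had a peak, Phf19, Pcgf5 and Cbx6, and 34 of the 35 genes of the list, these included, had H3K4me3 in both compartments.

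Markers of cells outside the epithelium were counted as well. Of 45 genes of T and intraepithelial lymphocytes, 5 had a villi-only promoter peak (11.1%), namely Cd3e, Cd3g and Cd3d, the chains of the T cell receptor complex, Cd5 and Ubash3a, with scores of 10.2 to 13.9. In the same list, H3K4me3 was found at 9 genes in both compartments, at 11 in villi alone and at 0 in crypts alone, so that 20.0% of the list had it in crypts and 44.4% in villi. Over all protein-coding genes, H3K4me3 was in villi alone at 1.27% and in crypts alone at 1.06%. Cd3e and Cd3g were among the 11, so that H3K4me3 and H3K27me3 were both called in villi and not in crypts. Of 15 B and plasma cell genes 3 had a peak (Cr2 and Mzb1 among them), of 25 macrophage and dendritic cell genes 2 (Csf2rb and C1qc), of 38 fibroblast and smooth muscle genes 6, of 21 endothelial genes 1 (Esam) and of 22 enteric neuron and glia genes 1 (Snap25). Pdgfra had a peak of 5202 bp (18.8), Sparc one of 1995 bp (18.6) and Pdgfrb a pair of 975 and 534 bp (17.9 and 11.8). H3K4me3 was called in villi alone at 0 of the 15 B and plasma cell genes, 1 of the 25 macrophage and dendritic cell genes, 3 of the 38 fibroblast and smooth muscle genes, 1 of the 21 endothelial genes and 0 of the 22 enteric neuron and glia genes. The part of other cell types in the villi-only peaks was not tested.

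H3K4me3 was called in crypts and not in villi at 28 of the 1008 genes (2.78%), against 1.06% of all protein-coding genes, and in villi and not in crypts at 27 (2.68%), against 1.27%. At genes with promoter H3K27me3 in both compartments the shares were 3.45 and 5.07%. H3K4me3 was present in both compartments at 462 genes (45.8%) and in neither at 491 (48.7%). H3K4me1 was called in crypts alone at 44 genes (4.37%), against 5.68% of all genes, and in villi alone at 82 (8.13%), against 3.95%, while genes with H3K27me3 in both had 3.34 and 9.88%. The count in crypts alone depended on the score of the mark: with H3K4me1 peaks of score 20 or more in both lists, whose scores are not scaled to each other, it was 75 of the 1008 genes, against 12.2% of all genes. The H3K4me3 peaks behind these differences ranked low. Those in crypts alone had a median rank at the 12.4th percentile of their list and those in villi alone at the 10.1th, and none of the 55 stood in the upper 50%.

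Among the 28 genes with H3K4me3 in crypts alone, high H3K27me3 scores were found at the ion exchanger Slc24a3 (22.3), Egflam (20.3), the protease Mmp25 (19.4) and the angiopoietin Angpt2 (17.5), followed by Alkal1, Greb1, Spaca6, the retinol carrier Rbp4 and Pdlim3. Angpt2 had a crypts H3K4me3 peak of 3533 bp with a score of 55.6, and Slc14a1 one of 3097 bp with 30.4. Spink4, a protease inhibitor of goblet cells, and Notch3 belonged to the same group, with crypts H3K4me3 peaks of 1383 and 832 bp. At Angpt2 a villi H3K4me3 peak also met the H3K27me3 peak, but not within 1 kb of a start. The crypts H3K4me3 peak overlapped the villi H3K27me3 peak at 16 of the 28, and 22 had H3K4me1 in both compartments. At 9 of the 28, Slc24a3, Mmp25 and Rbp4 among them, crypts also had H3K27me3 near a start.

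With H3K4me3 in villi alone, the highest H3K27me3 scores were at Elavl2 (32.6), Armc2 (26.6), Kcnip2 (26.3), Tmem130 (22.3) and Panx2 (19.4), followed by Rab39, the T cell adaptor Grap2, Lynx1, Cfap45 and Slfn5. The villi H3K4me3 peak of Elavl2 was 466 bp wide with a score of 10.9, and that of Tmem130 489 bp with 15.2. For Cd3e it was 1181 bp with 10.8 and for Cd3g 2180 bp with 11.0. The H3K4me3 peak overlapped the H3K27me3 peak at 13 of the 27, and at the others, such as Kcnip2, Panx2 and Cfap45, it lay elsewhere near a start of the gene. At 10 of the 27, Panx2, Lynx1 and Slfn5 among them, crypts also had H3K27me3 near a start.

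Where a single H3K4me3 peak of crypts met a single one of villi at a villi-only promoter peak, their widths were compared. Over 312 such pairs the log2 of the ratio of widths, villi over crypts, had a median of -0.08 (quartiles -0.28 and 0.09), and 194 pairs (62.2%) were narrower in villi, against 58.6% of all promoter pairs and 59.4% of those without H3K27me3. All pairs at promoters had a median of -0.04 and those at shared promoter peaks one of -0.01. The villi peak was at least 2-fold narrower in 5 pairs (1.60%), against 0.712% of all promoter pairs, and at least 2-fold wider in 3 (0.962%), against 0.582%. At shared promoter H3K27me3 peaks these shares were 1.95 and 1.66%. For H3K4me1 the median was -0.02 over 317 pairs, of which 8 (2.52%) were at least 2-fold narrower in villi and 14 (4.42%) at least 2-fold wider, against 2.80 and 2.77% of all promoter pairs and 0.992 and 3.54% of those at shared promoter H3K27me3 peaks.

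Summed over all H3K4me3 peaks near the starts of a gene, the width fell to 50% or less in villi at 9 of the 462 genes with H3K4me3 in both compartments (1.95%), against 0.719% of all such genes, and at least doubled at 4 (0.866%), against 0.824%. The 9 were Msi1 (2249 bp in crypts and 396 bp in villi), Ltbp4 (2391 and 793 bp), Slc12a2 (5598 and 2122 bp), E2f8 (4990 and 1969 bp), Tmeff1 (2022 and 818 bp), Dixdc1 (1470 and 620 bp), Sertad4 (1368 and 580 bp), Mcf2l (2193 and 989 bp) and Ccdc3 (1140 and 529 bp). Wider in villi were Nt5e (781 and 4142 bp), Slc25a48 (834 and 2114 bp), Ank2 (660 and 1569 bp) and Cemip (622 and 1374 bp). Msi1, Slc12a2 and E2f8 are genes of stem and dividing cells and Nt5e one of villus enterocytes. Across the whole stem cell list the log2 ratio had a median of -0.46, with 29 of 30 genes narrower in villi, across the cell cycle list one of -0.41, with 62 of 66 narrower, and across the enterocyte list one of 0.24, whether or not a gene had a villi-only H3K27me3 peak. Over all 12381 genes it was -0.04, with 7339 narrower.

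**Figure D5:**
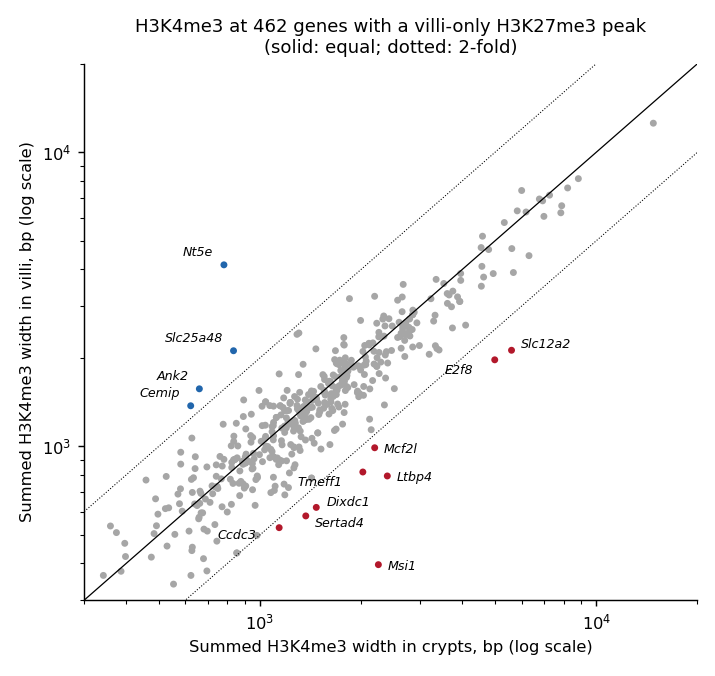
Summed width of the H3K4me3 peaks near the starts of 462 genes with a villi-only promoter H3K27me3 peak, in crypts (horizontal axis, bp, log scale) and villi (vertical axis, bp, log scale), with 1 point per gene. The solid line is equality and the dotted lines a 2-fold difference, with 9 named genes at or below the lower line, Msi1 lowest at 396 bp in villi, and 4 at or above the upper line, Nt5e highest at 4142 bp.

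On the X chromosome, 27 of the 47 villi promoter peaks under 10 kb had no crypts counterpart (57.4%, 95% Wilson interval 43.3 to 70.5%), while the autosomal share was 27.2%, between 21.9 and 32.4% for each autosome. The 27 had a median width of 869 bp and a median score of 12.2. Those with the highest scores were at Rtl5 (16.6), Hs6st2 (13.9), a heparan sulphate sulfotransferase, and Mcf2 (13.6), and Fgf16, Apln and Gria3 were among the others. H3K4me3 of villi overlapped 6 of the 27 (22.2%), against 31.3% of the autosomal villi-only promoter peaks. In the other direction, 7 of 26 crypts promoter peaks on the X chromosome had no villi counterpart, against 158 of 3156 on the autosomes.

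H3K9me3, a mark of heterochromatin, overlapped 2 of the 1070 peaks in crypts (0.187%) and 3 in villi (0.280%), against 0.463 and 0.214% of shared promoter peaks. The 5 peaks lay at Pcdhga11, Rab37, with 2 peaks, Bglap3 and Gnas. The H3K9me2 lists hold 6 peaks in crypts and 3 in villi, too few to say anything about that mark at these promoters.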

How the data were processed

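ChIP-seq libraries of crypts and villi were used as the peak lists deposited for them. Per the study's methods and the submitters' processing notes, the authors aligned reads to mm10 with Bowtie 1.1.2, keeping 1 position per read, removed duplicates, and called peaks with MACS2 2.1.1. deepTools 3.1 made signal tracks, not used here. The score in the deposited lists is read as a −log10 p-value assigned by the authors' peak caller, as no score lies below 10. It could be a q-value, carries no spike-in scaling, and was compared inside 1 list, except in 1 alternative that set the same minimum for the crypts and villi lists of a mark. The methods do not name peak calling for H3K9me2. Depth is unknown, no list gives read counts, and the inputs and mass spectrometry data were not used.

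Start sites came from 21866 protein-coding genes of GENCODE M21 (GRCm38) and sequence from the RefSeq GRCm38.p6 genome. Overlaps of at least 1 bp were computed with Python 3.11.15, pandas 2.3.3, NumPy 2.4.6, SciPy 1.17.1 and pysam 0.24.0, tested on simulated peaks, and 3 of the counts were checked with bedtools 2.31.1, which gave the same numbers. The genome was indexed with samtools 1.23.1 and figures were drawn with Matplotlib 3.10.9. Crypts and villi had 1 library each per mark, so compartments were not tested against each other. The 95% Wilson intervals reflect counting error alone and treat neighbouring peaks as independent, which they are not. Most results are set beside the share over all genes or peaks.

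The peaks and the gene lists were chosen with earlier results of these data known. Genes named were the 10 with the highest scores, the 3 highest of each list, up to 10 with H3K4me3 in 1 compartment in each direction, the peaks nearest the limits and those over H3K9me3. Further genes of the short lists, those with a 2-fold change in summed H3K4me3 width, those of the flanking pairs, the X chromosome and the groups of neighbouring peaks were named after their values were seen. Alternatives covered the overlap rule, the window and start sites, the score, the chromosomes, the missing crypts numbers, the sequence window and the pairing of H3K4me3 peaks. Some genes that the naming rule covers are not reported here.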

Additional observations from a re-analysis of the deposited data

How the results depend on the processing

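No paired analysis was possible because each group had 1 library. Of 1070 peaks, 909 had no crypts peak within 1 kb, and windows of 500 bp and 2 kb gave 848 and 1406. A 50% reciprocal overlap gave 1718 peaks, with H3K4me1 at 38.6 and 43.2% (crypts, then villi, here and below), islands at 46.7% and a median CpG ratio of 0.574. A villi score of at least 20 gave 117 peaks, with H3K4me3 at 35.0 and 35.0%, H3K4me1 at 38.5 and 46.2%, islands at 60.7% and a ratio of 0.680. The upper 50% of the villi list gave 406, with 37.7 and 38.2%, 38.7 and 45.1%, 48.5% and 0.591. Consecutive crypts numbers gave 105, with H3K4me3 at 36.2 and 34.3%, crypts H3K4me1 at 30.5%, islands at 49.5% and a ratio of 0.591. The villi list cut to the length of the crypts list, chosen after seeing the data, gave 487, with 35.7 and 36.3%, 38.0 and 43.9%, 45.8% and 0.570. The 2 kb window lowered H3K4me3 to 25.0 and 24.5% and H3K4me1 to 28.9 and 31.4%. With outermost starts H3K4me3 was at 34.3 and 34.1%, islands at 45.6% and the ratio at 0.559, and without crypts peaks within 1 kb islands were at 37.7%. If a mark had to cover 50% of the peak, H3K4me3 fell to 12.2 and 10.4% and H3K4me1 to 16.4 and 18.9%. Over the whole peak the ratio was 0.332 and 10.7% met the island limits. With H3K4me peaks of score 20 or more, 75 of 1008 genes had H3K4me1 in crypts alone, against 12.2% of all genes. The other alternatives stayed within the interval of the reported share, or within 1.5 times the reported count. The cause of these shifts was not tested. No median H3K4me3 width ratio changed sign. The unknown depth limits what the absence of a crypts call shows.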
